A study of Oryza longistaminata with 15 samples.

Results

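Of the 57194 rice probe sets on the array, 32 gave a signal over 200 on all 12 tip and internode arrays of *Oryza longistaminata* and under 50 on all 3 young leaf arrays. The 32 members were thus chosen by their signals in all 5 tissues. The 2 probe sets of the KNOX homeobox gene *OSH1* (Os03g51690) also met the rule and were left out. The low young leaf signal is therefore a description, with no test. RNA of 5 tissues was hybridized to Affymetrix GeneChip Rice Genome Arrays, 1 array per sample and 3 replicates per tissue, starting from 5 µg of total RNA. The tissues were rhizome tip (RT, the last 1 cm of a young rhizome), shoot tip (ST, the last 5 mm of a tiller stripped of its leaves), rhizome internode (RI), shoot internode (SI) and young leaf (YL). All samples were wild type, from greenhouse plants at the active tillering stage, and no group received a treatment. The sample records speak of individual plants while the methods describe an accession kept as a single plant, so the p-values measure only the spread between these samples, which may be technical.

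*O. longistaminata* is a perennial wild relative of cultivated rice that spreads by rhizomes, which are stems growing underground. A rhizome tip and a shoot tip both hold an apical meristem and the youngest leaf primordia, an internode is the stem between leaf nodes with its vascular bundles, and a young leaf is largely photosynthetic mesophyll. A probe set is a group of short oligonucleotides designed against a transcript, here of *O. sativa*. Names ending in _at mark probe sets built to match 1 transcript, _a_at several transcripts of a gene, and _s_at and _x_at probe sets that can also match transcripts of other genes.

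Among the members, 21 names end in _at, 1 in _a_at, 7 in _s_at and 3 in _x_at. A single gene identifier was attached to 27 members, standing for 26 genes since 2 members are annotated to LOC4339052, while 1 member had several identifiers and 4 had none. Functional annotation could be attached to only 3 members. Os.55527.1.S1_at (LOC4345527, Os08g31340) represents a protein with a heavy metal-associated domain, a small domain that binds metal ions, known from copper chaperones and metal-transporting ATPases. Os.9679.1.S1_at (LOC4349933, Os11g07830) represents a member of the disease resistance-responsive family. Os.52694.1.S1_at (LOC4341811, Os06g46030) is annotated only as an expressed protein. The other members are given by their identifiers, without a role.

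The arrays were alike in overall signal, with array medians of 21.9 to 23.5. A signal of 49.6, the 95th percentile of 64 reporter control probe sets that match no rice gene, served as the detection cutoff, and 21303 probe sets that exceeded it throughout at least 1 tissue were tested. Differences were fitted on log2 signal with limma over all 15 arrays, with 1 mean per tissue, and called at an adjusted p (Benjamini-Hochberg over the 21303) under 0.05 and a fold change over 2. Photosynthesis transcripts (54 probe sets tested) describe the arrays but are no separate check of the leaf label. They were named from the study's lists of tissue-enriched and tip-different genes, called in these same data. A high YL signal was thus likely beforehand. Their summed signal was 180193 to 219133 on the YL arrays, 86301 to 122458 on the SI and 10190 to 24706 on the RI. It was 20287 to 22674 on the RT-labelled and 4142 to 4563 on the ST-labelled arrays. At most 1 of the 54 was at or below the cutoff on a YL array, against 31 or 32 on the ST-labelled arrays. For the tips, the labels are uncertain: the deposited signals gave the directions printed in the study's own list of tip differences only with the RT and ST labels exchanged. This was so for all 424 probe sets of that list. The photosynthesis sums, higher on the RT-labelled arrays, ran opposite to the paper, which describes many photosynthesis genes as down-regulated in rhizome tips. That list was among the sources of the photosynthesis annotation, so these sums are no separate evidence on the labels. The tip arrays are therefore called RT-labelled and ST-labelled. Comparisons of all tips with all internodes do not depend on these labels.

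**Figure D1:**
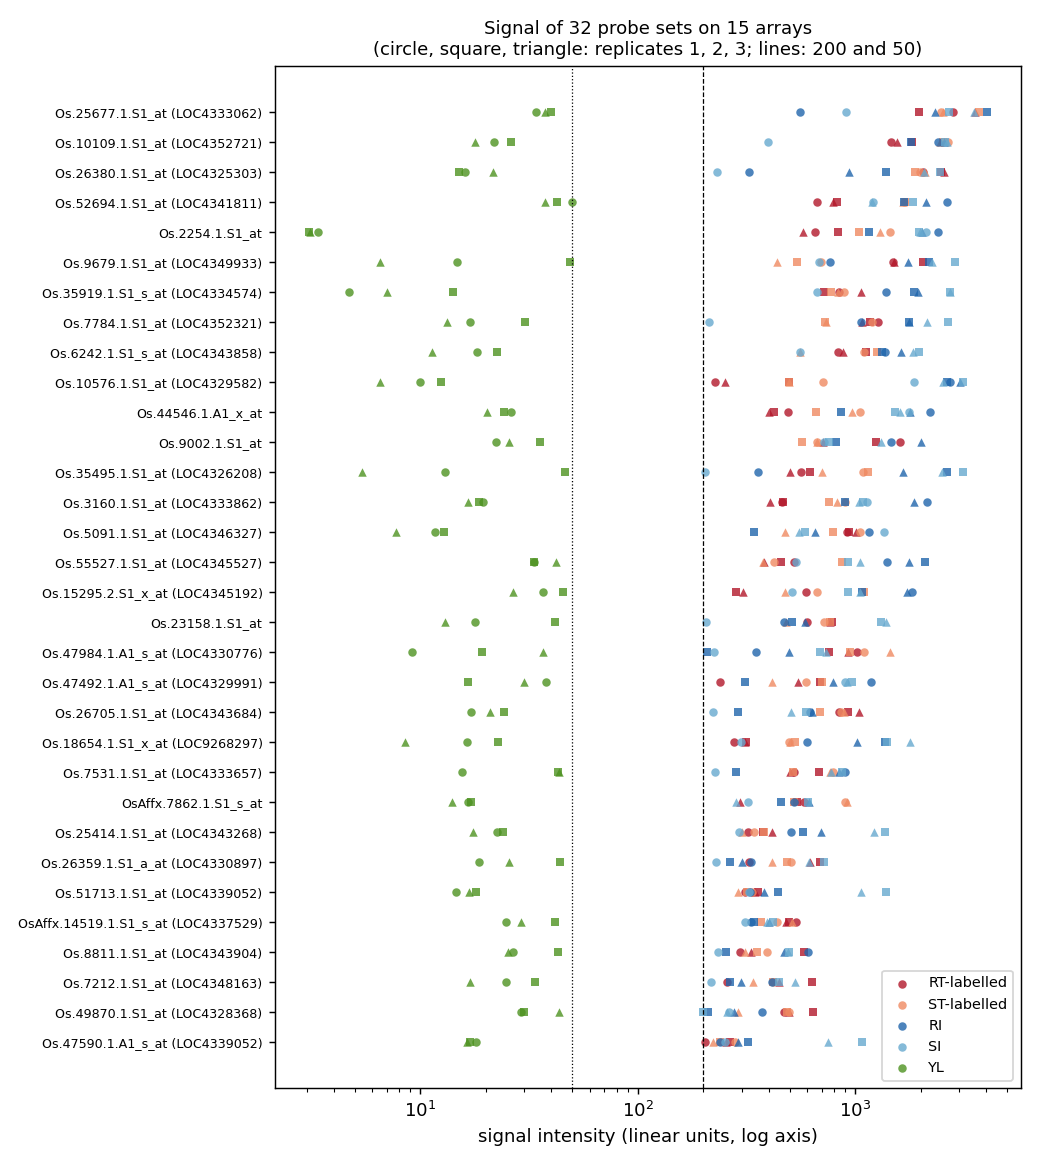
Signal intensity (linear units on a log axis) of the 32 members on each of the 15 arrays, ordered by their geometric mean over the 12 tip and internode arrays. Colours give the tissue label, marker shapes the replicate, and the lines mark 200 and 50; the YL points lie at 3.08 to 49.8 and all others at 200.2 to 4013.

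Most probe sets that were high in both tips and both internodes were high in YL too. Signals over 200 on all 12 tip and internode arrays were found for 4755 probe sets, or 4753 without *OSH1*. Of these 4753, 4127 (86.8%) were over 200 on all 3 YL arrays too, 78 were under 100 on all YL arrays, and the 32 members made up 0.673%. The 4755 are called the bright probe sets below, and serve as the comparison for the members. In bulk tissue, fewer cells of a type and less RNA per cell cannot be told apart in any of these values.

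Over the 12 tip and internode arrays, the members' geometric mean signal ran from 314 to 2284, with a median of 751. Bright probe sets had a median of 792. In YL the members' geometric means ran from 3.19 to 42.9 with a median of 20.8. For 31 of the 32, all 3 YL arrays were below the detection cutoff, the exception being Os.52694.1.S1_at with 49.8 on YL replicate 1. A fold against YL is thus only a lower bound: taken over the cutoff, the 12-array geometric means of these 31 were at least 6.33-fold to at least 46.0-fold higher.

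The brightest member was Os.25677.1.S1_at (LOC4333062). Its signals were 2810.3, 1958 and 3562 on the RT-labelled arrays, 2474, 3720.4 and 2529.9 on the ST-labelled, 557, 4013 and 2323 on the RI and 901, 2692 and 3501 on the SI arrays, against 34.0, 39.9 and 37.6 on the YL arrays. RI replicate 1 and SI replicate 1 were far below their mates on this probe set, while the other 10 tip and internode arrays read 1958 or more. Next came Os.10109.1.S1_at (LOC4352721), with 1458, 1819 and 1548 in RT-labelled, 2678, 2537 and 2448 in ST-labelled, 2401, 1808 and 2566 in RI, 396, 2592 and 2649 in SI and 21.9, 26.0 and 17.8 in YL samples. Here SI replicate 1 alone was low.

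The deepest low was that of Os.2254.1.S1_at, which carries several gene identifiers and so names no gene. It read 3.38, 3.08 and 3.11 on the YL arrays, where the next lowest YL geometric mean among the members was 7.73, for Os.35919.1.S1_s_at (LOC4334574). On the other arrays it read 652, 834 and 574 (RT-labelled), 1449, 1042 and 1304 (ST-labelled), 2404, 1151 and 2030.0 (RI) and 2117, 1971 and 1972 (SI). The 12-array geometric mean was 1322, at least 26.6-fold above the cutoff, and the RT-labelled arrays were the lowest of the 12. Since these YL signals are all below the cutoff, they give no order of transcript levels within YL.

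The steadiest member over tips and internodes was OsAffx.14519.1.S1_s_at (LOC4337529). Its 12 signals lay between 311 and 533, a 1.71-fold range, and its YL signals were 24.7, 41.7 and 29.1. The widest was Os.35495.1.S1_at (LOC4326208), whose 12 signals ran over a 15.4-fold range, from 203 on SI replicate 1 to 3123 on SI replicate 2. The median SD of log2 signal over the 12 arrays was 0.73 for the members and 0.42 for the bright probe sets, a description of the arrays together that holds tissue differences and replicate spread alike. By tissue mean, 13 members were highest in SI, 7 in RI, 7 in the RT-labelled and 5 in the ST-labelled samples.

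Several members and non-members sat close to the thresholds. Just inside the upper one, the lowest of the 12 signals was 200.2 for Os.49870.1.S1_at (LOC4328368), 203 for Os.35495.1.S1_at, 204 for Os.47590.1.A1_s_at (LOC4339052), 205 for Os.23158.1.S1_at and 207 for Os.47984.1.A1_s_at (LOC4330776). Just outside it were Os.26710.1.S1_at (LOC4326222) at 198, Os.4162.1.S1_at (LOC4337701) at 196, Os.56326.2.S1_at (LOC4329599) at 190.2, OsAffx.16677.1.S1_at at 184 and Os.4830.1.S1_at (LOC4347397) at 181, all with YL signals under 50. At the lower threshold, the highest YL signal was 49.8 for Os.52694.1.S1_at, 48.6 for Os.9679.1.S1_at, 46.4 for Os.35495.1.S1_at, 45.3 for Os.15295.2.S1_x_at (LOC4345192) and 44.0 for Os.26359.1.S1_a_at (LOC4330897). The nearest outside were Os.6664.1.S1_at (LOC4339526) at 53.0, Os.6789.1.S1_at (LOC4347614) at 53.0, Os.7649.1.S1_at (LOC4349767) at 55.2, Os.7855.1.S1_at (LOC4352722) at 55.6 and Os.57465.1.S1_x_at (LOC4333062) at 56.4. In all 5 of these that value came from YL replicate 2.

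The rule used these same 12 values: its floor on every array keeps out probe sets that are low in tips or internodes and so bounds their difference, without setting which is higher. The calls in this comparison are therefore read beside those of the bright probe sets, which passed the same floor. Between all tips and all internodes, 9 of the 32 members were called, 8 higher in internodes and 1 higher in tips. Over all tested probe sets 31.4% were called (15.8% higher in tips, 15.6% higher in internodes), and over the bright probe sets 14.7% (5.26% higher in tips, 9.46% higher in internodes). The median log2 difference, tips minus internodes, was −0.46 over the members and 0.00 over the bright probe sets, and 13 of the 32 members had a value above 0. The split moved with the scaling. After quantile normalization 3 members were higher in tips and 4 in internodes, beside 16.6% and 15.4% of all tested and 8.94% and 7.07% of bright probe sets, and the median difference was −0.24 over the members and 0.17 over the bright probe sets. After median centring 2 were higher in tips and 7 in internodes, beside 16.2% and 15.2% of all tested and 5.55% and 9.13% of bright probe sets. The 12 tip and internode signals of 2 members had every tip array below every internode array, and those of 2 others every tip array above. Among all tested probe sets 11.5% separated with tips below and 16.4% with tips above, and among the bright ones 12.6% and 13.2%.

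**Figure D2:**
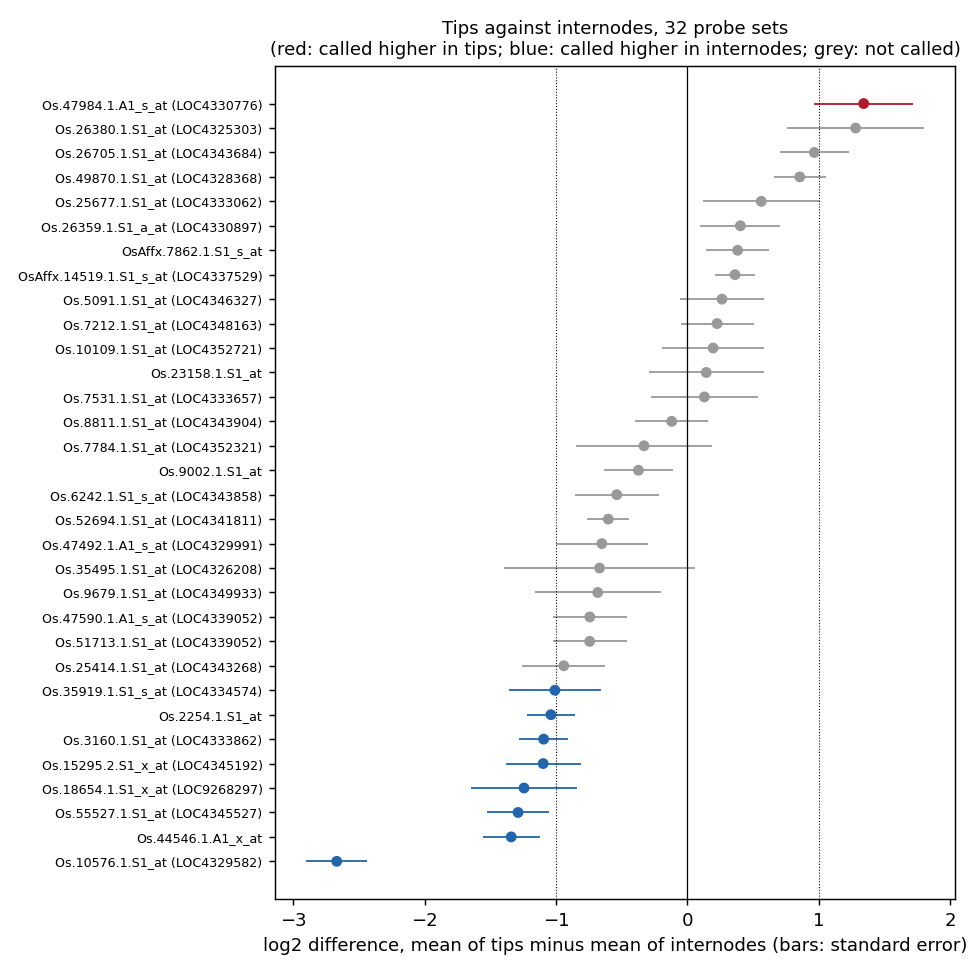
Log2 difference of the mean of tips minus the mean of internodes for the 32 members, with standard errors from the limma fit; dotted lines mark a 2-fold change. The 8 blue points at −2.67 to −1.01 were called higher in internodes and the red point at 1.34 higher in tips; grey points were not called.

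Os.10576.1.S1_at (LOC4329582) had the largest difference among the members. In tips it read 226, 496 and 251 on the RT-labelled and 711, 495 and 495 on the ST-labelled arrays. In internodes it read 2724, 2642 and 3020.4 on the RI and 1866, 3135 and 2542 on the SI arrays. The highest tip array was far below the lowest internode array. The log2 difference was −2.67 ± 0.23 (SE), or 6.36-fold, with a limma adjusted p of 1.9e-06, and the YL arrays read 9.94, 12.5 and 6.50. This member thus spanned a low in leaf, an intermediate level in tips and a high level in internodes of both organs.

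Os.3160.1.S1_at (LOC4333862) was the other member with all tips below all internodes. Its tip signals were 462, 462 and 403 (RT-labelled) and 892, 759 and 822 (ST-labelled), and its internode signals 2143, 893 and 1854 (RI) and 1135, 1087 and 1036 (SI). The separation was narrow, the highest tip at 892 and the lowest internode at 893. Its log2 difference was −1.09 ± 0.19 (adjusted p 0.00041). Without RI replicate 1 (−0.97) and after quantile normalization (−0.92) it was no longer past 2-fold.

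Os.55527.1.S1_at, the heavy metal-associated domain protein, was also higher in internodes. It read 523, 456 and 379 on the RT-labelled and 425, 865 and 378 on the ST-labelled arrays. On the RI arrays it read 1392, 2083 and 1773 and on the SI arrays 531, 929 and 1052. The RI arrays were above all tips, while SI replicate 1 lay among them. The log2 difference was −1.29 ± 0.24 (adjusted p 0.00061).

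Of the other 5 called higher in internodes, Os.44546.1.A1_x_at, which has no gene identifier, had tip signals from 399.9 to 1048 with a median of 572 and internode signals from 857 to 2203 with a median of 1688, and a log2 difference of −1.34 (adjusted p 0.00025). Os.2254.1.S1_at had −1.04 (adjusted p 0.00045), with a tip median of 938 and an internode median of 2001. The tip and internode ranges of both overlapped. Os.15295.2.S1_x_at (LOC4345192, −1.10, adjusted p 0.0062), Os.18654.1.S1_x_at (LOC9268297, −1.24, adjusted p 0.02) and Os.35919.1.S1_s_at (−1.01, adjusted p 0.03) also overlapped. Near the 2-fold limit, calls depended on single arrays and on the scaling. Quantile normalization ended those of Os.2254.1.S1_at (−0.80), Os.15295.2.S1_x_at (−0.95) and Os.35919.1.S1_s_at (−0.79, adjusted p 0.065), and median centring that of Os.35919.1.S1_s_at (−0.99). That of Os.2254.1.S1_at was lost (−0.99 to −0.93) without RT-labelled replicate 3, ST-labelled replicate 2 or RI replicate 1 or 3, and that of Os.15295.2.S1_x_at (as little as −0.96) without RT-labelled replicate 2, ST-labelled replicate 3 or SI replicate 3. For Os.18654.1.S1_x_at (adjusted p 0.05) this was so without SI replicate 2 or 3. Os.35919.1.S1_s_at lost its call (−1.01 to −0.84) without RT-labelled replicate 1 or 2, ST-labelled replicate 2 or 3, RI replicate 2 or 3, or SI replicate 2 or 3. The 3 probe sets named _x_at and the 1 named _s_at here can also report transcripts of other genes.

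Os.47984.1.A1_s_at (LOC4330776) was the member called higher in tips. The RT-labelled arrays read 1019, 758 and 925 and the ST-labelled 1090.1, 947 and 1447. The RI arrays read 349, 207 and 495 and the SI arrays 224, 687 and 733. Every tip array was above every internode array, the lowest tip being 758 and the highest internode 733. Its log2 difference was 1.34 ± 0.37 (adjusted p 0.0095). The other member with all tips above all internodes, Os.26705.1.S1_at (LOC4343684), had tips of 686 to 1034 and internodes of 222 to 634. Its log2 difference of 0.97 (adjusted p 0.008) was under 2-fold and so was not called. It passed 2-fold after quantile normalization (1.14, adjusted p 0.0018) and without RT-labelled replicate 1, ST-labelled replicate 2, RI replicate 1 or 3, or SI replicate 2 or 3 (1.00 to 1.10).

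Other members varied widely among the internode arrays and were not called in the fit over all arrays. Os.26380.1.S1_at (LOC4325303) read 2037, 2488 and 2569 on the RT-labelled and 1984, 1871 and 2100.3 on the ST-labelled arrays, a narrow band. Its RI signals were 325, 1379 and 939 and its SI signals 231, 2461 and 2063. SI replicates 2 and 3 were at the level of the tips, while RI replicate 1 and SI replicate 1 were far below. The log2 difference of 1.28 ± 0.52 had an adjusted p of 0.055. This missed call turned with the settings: Os.26380.1.S1_at was called higher in tips with the replicate number as a block (adjusted p 0.03), after quantile normalization (adjusted p 0.02) and median centring (adjusted p 0.05, under the threshold before rounding), and without RI replicate 2, SI replicate 2 or SI replicate 3 (adjusted p 0.022 to 0.036). Os.7784.1.S1_at (LOC4352321) showed a like spread, with tips of 728 to 1267 and internodes of 213 to 2653, and a difference of −0.33 ± 0.51 (adjusted p 0.61).

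Without a fold minimum, 15 members passed the adjusted p, 3 higher in tips and 12 higher in internodes, beside 27.4% and 24.8% of all tested and 22.5% and 24.1% of bright probe sets. An F test over the 4 tissues, which asks whether a probe set differs among RT, ST, RI and SI in any way, passed for 11 members, beside 42.4% of all tested and 34.6% of bright probe sets, and for 18 members without SI replicate 1, where 48.2% of all tested and 38.1% of bright probe sets passed. The remaining 21 members had an adjusted p of 0.05 or more in that test, which does not show that their levels were equal.

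Rhizome and shoot internodes were compared next. No member was called between RI and SI by limma at the adjusted threshold, where 1.9% of all tested and 0.336% of bright probe sets were. At an unadjusted p under 0.05 there were 5 members, beside 11% of all tested and 7.05% of bright probe sets, and the median log2 difference was 0.00. The internode arrays of both organs also split in a shared way. RI replicate 2 and SI replicates 2 and 3 were all above RI replicates 1 and 3 and SI replicate 1 in 7 of the 32 members, against 17.3% of bright probe sets. They were all below them in 5 of the 32, against 20.9%. The split was thus common among the bright probe sets too and is not particular to the members. RI replicate 2 had the lowest summed photosynthesis signal of the RI arrays (10190, against 24706 and 21740), and its part in the split was not tested.

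SI replicate 1 stood apart from its mates in the members more than in the bright probe sets. The median member signal was 324 on it, against 1197 and 1126 on SI replicates 2 and 3. It was below both mates for 25 members (78.1%), against 39.2% of bright probe sets, and the lowest of all 12 arrays for 14 members (43.8%) against 10.5%. In 5 members SI replicate 1 was instead the highest SI array, most clearly in Os.5091.1.S1_at (LOC4346327), with SI signals of 1359.6, 585 and 553. Over the members, the median log2 signal of SI replicate 1 minus the mean of its mates was −1.42, and over the bright probe sets 0.07. Of the SI arrays it also had the highest summed photosynthesis signal (122458, against 86301 and 103207), with 3 of the 54 photosynthesis probe sets at or below the cutoff against 4 and 4. Whether the photosynthesis signal had a part in the low members was not tested.

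Single arrays bear on who is a member. Without SI replicate 1, 65 probe sets met the rule, and without YL replicate 2, 70 did. An omission can only keep or raise this count.

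**Figure D3:**
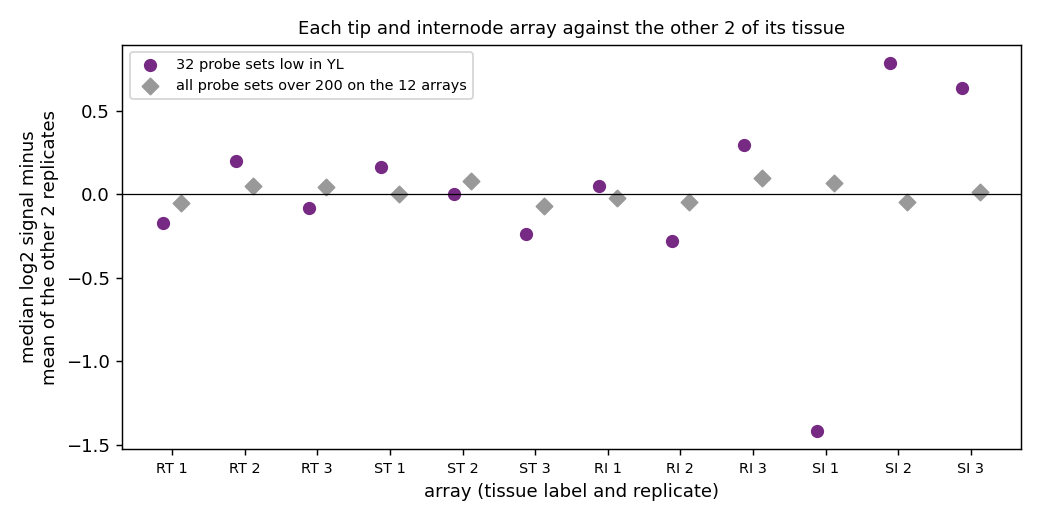
Median over probe sets of each array's log2 signal minus the mean of the other 2 replicates of its tissue, on the 12 tip and internode arrays, for the 32 members (circles) and the bright probe sets (diamonds). SI replicate 1 is lowest for the members at −1.42 and near 0 for the bright probe sets at 0.07.

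Without SI replicate 1, 3 members were called between the internodes, all higher in SI, beside 3.87% of all tested and 0.988% of bright probe sets in the same fit. They were Os.51713.1.S1_at and Os.47590.1.A1_s_at, 2 of the 3 tested probe sets of LOC4339052, and Os.25414.1.S1_at (LOC4343268). Os.51713.1.S1_at read 328, 441 and 381 on the RI arrays and 326, 1379 and 1057 on the SI arrays. SI replicates 2 and 3 were above every RI and tip array, and SI replicate 1 was among them. With all arrays its RI minus SI difference was −1.04 on the log2 scale (adjusted p 0.32), and without SI replicate 1 it was −1.67 ± 0.20 (adjusted p 0.00068).

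Os.47590.1.A1_s_at read 239.7, 321 and 289 on the RI and 252, 1076 and 746 on the SI arrays, and its difference without SI replicate 1 was −1.67 (adjusted p 0.0014). Os.25414.1.S1_at read 503, 573 and 694 on the RI and 293, 1369 and 1218 on the SI arrays, and its difference without SI replicate 1 was −1.14 (adjusted p 0.014). In each of them the SI arrays split in the same way, replicate 1 low and replicates 2 and 3 high. Without SI replicate 1 the lone pair of SI arrays decides the level, so these values rest on 2 samples. The omission also raised the tip and internode calls from 9 to 12, adding the same 3 members as higher in internodes, beside 32.2% of all tested and 15.3% of bright probe sets.

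The 2 members annotated to LOC4339052 followed each other closely, while the third tested probe set of this gene, Os.12685.1.S1_at, read higher on every tip array than on every internode array and is described with the further probe sets. The signal of Os.51713.1.S1_at over that of Os.47590.1.A1_s_at lay between 1.20 and 1.52 on all 12 arrays, and Pearson's r of their log2 signals was 0.993 over these arrays. The points share the RNA, the arrays and the gene, so this is a description of how alike the pair of probe sets read and no replicate.

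Both tips were compared under their labels. Only Os.52694.1.S1_at was called, beside 0.864% of all tested and 0.105% of bright probe sets. The RT-labelled arrays read 663, 826 and 789 and the ST-labelled 1677, 1682 and 1654. All 3 RT-labelled arrays were below all 3 ST-labelled arrays, which agreed closely among themselves. The difference, RT-labelled minus ST-labelled, was −1.14 ± 0.23 on the log2 scale (adjusted p 0.031), and its sign turns if the labels are exchanged. Leaving out any single tip array, or RI replicate 3, ended the call, with adjusted p of 0.059 to 0.14, and so did the replicate number as a block (adjusted p 0.071). Without RI replicate 2, 2 members were called, beside 1.03% of all tested and 0.189% of bright probe sets.

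Os.9679.1.S1_at, of the disease resistance-responsive family, differed between the tips by more but also varied more. Its RT-labelled signals were 1492, 2046 and 1512 and its ST-labelled signals 693, 537 and 436. The tip groups did not overlap. Its difference of 1.61 ± 0.68 was not called in the fit over all arrays (adjusted p 0.44), where its internode spread enters, from 764 to 2190.3 in RI and 679 to 2874 in SI. In a fit of the 6 tip arrays alone it was called (adjusted p 0.035).

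The question whether tips and internodes differ in the same way in rhizome and shoot was put to the interaction, (RT minus RI) minus (ST minus SI). It was called for Os.52694.1.S1_at only, beside 2.99% of all tested and 0.715% of bright probe sets. In RI this probe set read 2648, 1665 and 2119 and in SI 1202, 1837 and 1195, so that the RT-labelled arrays were all below the RI arrays while the ST-labelled arrays lay within the range of the SI arrays. The interaction was −1.75 ± 0.32 on the log2 scale (adjusted p 0.0084). With the tip labels exchanged it was 0.54 ± 0.32 (adjusted p 0.96), so the call holds only for the labels as they stand. Without RI replicate 2, 3 members were called for the interaction, beside 3.23% of all tested and 0.841% of bright probe sets. Without SI replicate 1, where these shares were 4.63% and 1.3%, 4 were called: Os.52694.1.S1_at (−1.65, adjusted p 0.015), Os.51713.1.S1_at (1.77, adjusted p 0.0028), Os.47590.1.A1_s_at (1.63, adjusted p 0.0087) and Os.25414.1.S1_at (1.26, adjusted p 0.033).

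The annotation gave 9 further probe sets to the genes of the members, which the rule had not selected. They come from the same RNA and arrays and are no independent samples. Their own YL signal did not choose them, but their genes were chosen by the low YL signal of a member. A low YL signal was thus likely beforehand. The calls are read as a description, and the shares beside them are no test of it. Of the 9, 5 passed the detection filter and were tested, and 4 of these were called lower in YL than in the mean of the other 4 tissues, beside 21.2% of all tested and 18.1% of bright probe sets. None of the 5 tested was above the cutoff on all 3 YL arrays, so each passed the filter through tips or internodes. The other 4 were not above the cutoff on all arrays of any tissue.

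**Figure D4:**
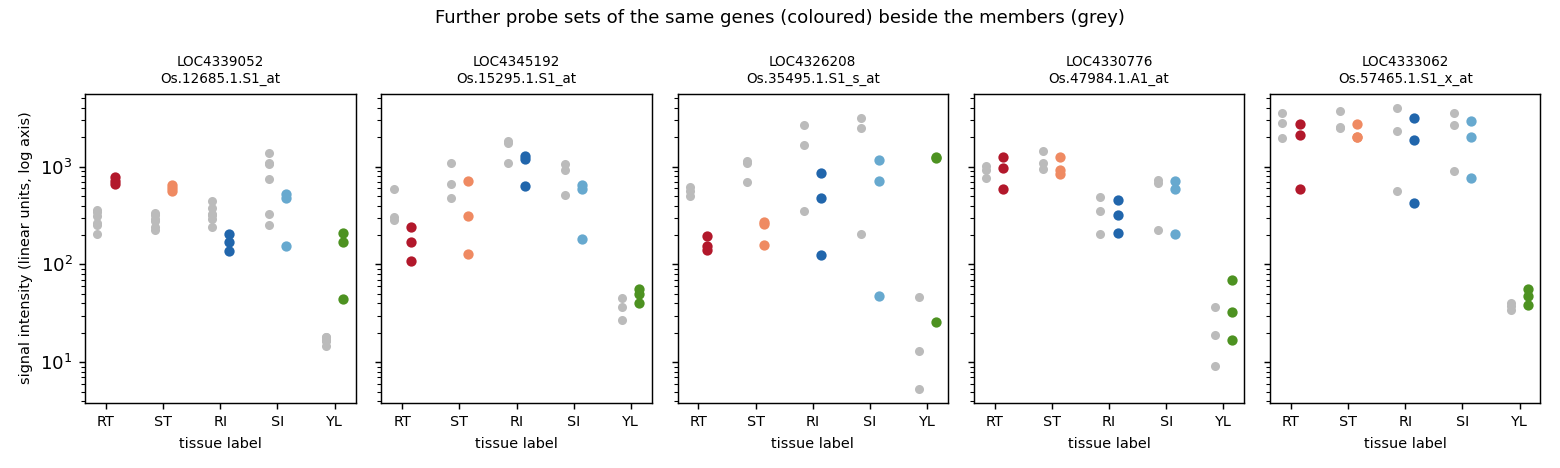
Signal intensity (log axis) by tissue label of the 5 tested further probe sets (coloured, 1 point per array) beside the members of the same gene (grey). In 4 panels the coloured YL points lie below those of the other tissues on average; for Os.35495.1.S1_s_at they spread from 26.0 to 1267.

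Os.57465.1.S1_x_at, a second probe set of LOC4333062, lay just outside the rule, with YL signals of 38.9, 56.4 and 48.0 against 429 to 3166 on the other 12 arrays. Its log2 difference, the mean of the 4 tissues minus YL, was 5.13 ± 0.57 (adjusted p 1e-05). Os.47984.1.A1_at of LOC4330776 read 16.8, 32.3 and 69.5 in YL and 207 to 1261 elsewhere, a difference of 4.15 ± 0.44 (adjusted p 6.6e-06). In both genes each tested probe set read low in YL, which the choice of these genes by a low YL signal made likely. The names of Os.47984.1.A1_at and the member Os.47984.1.A1_s_at differ only in their ending, so they are not taken as separate readings.

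Os.15295.1.S1_at of LOC4345192 read 56.7, 40.5 and 49.5 in YL and 107 to 1290.4 elsewhere (2.96 ± 0.48, adjusted p 0.00019). Os.12685.1.S1_at of LOC4339052 was less low in YL, at 212, 44.4 and 171, with a difference of 1.76 ± 0.43 (adjusted p 0.0034). It also ran differently over the other tissues: it read 715, 665 and 784 (RT-labelled) and 609, 644 and 565 (ST-labelled) in tips but 137, 206 and 169 in RI and 153, 521 and 475 in SI. Its YL arrays overlapped the internode arrays.

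Os.35495.1.S1_s_at, annotated to LOC4326208 as is the member Os.35495.1.S1_at, did not follow it. On the YL arrays it read 26.0, 1267 and 1224, where the member read 12.9, 46.4 and 5.38. Only YL replicate 1 was low, and the other YL arrays were above all 12 tip and internode arrays, which ran from 47.2 to 1167. The log2 difference was −0.39 ± 1.13 (adjusted p 0.78). On the 6 internode arrays both probe sets were lowest on SI replicate 1 and highest on SI replicate 2, with 203, 3123 and 2502 for the member and 47.2, 1167 and 719 for the other. A probe set named _s_at can match transcripts of other genes, and which transcript it read in YL was not tested.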

How the data were processed

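The deposited values are signal intensities from 15 scanned 1-colour Affymetrix arrays, which the authors processed with GCOS 1.4 at default settings and scaled globally over all arrays in dChip. They are linear, without detection calls, and their spread is limited by the number of arrays, 3 per tissue. Of 57381 probe sets, 187 controls were removed. A cutoff of 49.6 (95th percentile of the reporter controls) left 21303 probe sets for testing, those exceeding it throughout at least 1 tissue.

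Signals under 1 were set to 1, log2 was taken, and 1 mean per tissue was fitted with limma 3.58.1 (lmFit, eBayes) in R 4.3.3, all 15 arrays sharing 1 residual variance per probe set. P-values were adjusted by Benjamini-Hochberg per contrast over the 21303, and calls needed an adjusted p under 0.05 and over 2-fold. The methods used SAM and Wilcoxon tests with fold limits that differed between steps, and limma with a single 2-fold limit was used here. The contrasts were tips against internodes, RI against SI, the labelled tips, the interaction, an F test over the 4 tissues, and, for further probe sets of member genes, the 4 tissues against YL. The fit was tested on simulated data.

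Gene identifiers came from the platform annotation (22436 probe sets with 1, 95 with several). Locus names and annotations of 2633 probe sets came from the study's tables. None of 19 annotation lists held a member, as only 3 members are annotated. Of 424 probe sets in the study's list of tip differences, 0 had the listed direction under the array labels and 424 with both tip labels exchanged.

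The members and lists were chosen with earlier results of these data known. Members named in the text were drawn from those with the highest 12-array mean, the largest ratio to YL, the smallest spread, a call in a comparison, or a value next to a threshold. Alternatives were other scalings, filters, thresholds, variance models and arrays in the fit, a replicate block, and each array left out. Figures were drawn with matplotlib 3.10.9.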

Additional observations from a re-analysis of the deposited data

Results flagged for a closer look

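Os.52694.1.S1_at (LOC4341811, Os06g46030, an expressed protein) was singled out by a test of the interaction under the tip labels as they stand. Under these labels its difference between tip and internode differed between rhizome and shoot. The interaction, (RT-labelled minus RI) minus (ST-labelled minus SI), was −1.75 on the log2 scale (SE 0.32, limma adjusted p 0.0084), with all 3 RT-labelled arrays below all 3 RI arrays and the ST-labelled arrays inside the SI range. It was called at every omission of a single array, from −1.96 to −1.59, but with the tip labels exchanged it was 0.54 (adjusted p 0.96). The study's list of tip differences has its printed directions only with the labels exchanged, so this call rests on uncertain labels.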

How the results depend on the processing

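The number of members followed the thresholds: 101 with 100 in place of 200, 8 with 400 in place of 200, 13 with 25 in place of 50, 78 with 100 in place of 50, and 301 with tissue means in place of every array. It was 32 to 70 when a single array was left out. Without SI replicate 1 and YL replicate 2 together, an alternative chosen after seeing the data, it was 118. In that fit 4 of the 32 members were called between RI and SI, 5 for the interaction and 20 by the F test. The shares of all tested and bright probe sets called were not computed there, so these counts are no result about the members. Quantile normalization kept 30 of the 32 members. Between tips and internodes, 7 to 12 members were called when a single array was left out, and 15 without the fold minimum. Quantile normalization called 7, of which 5 were shared with the 9, and median centring 9, of which 8 were shared. Between RI and SI the range was 0 to 3, for the labelled tips 0 to 2, for the interaction 1 to 4, and for the F test 8 to 18. With only the 6 tip arrays, 2 members were called between the labelled tips, and quantile normalization called 2 for the interaction. For these calls, too, the shares over all tested and bright probe sets were not computed. Exchanging the tip labels, also tried after seeing the data, left 0 interaction calls, turned Os.52694.1.S1_at to 0.54 for the interaction, and turned its tip difference to 1.14. The further probe sets of member genes gave 4 calls lower in YL whichever array was left out. This is a description, as their genes were chosen by a low YL signal.

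Replicate numbers did not pair the arrays throughout: of 30 same-numbered pairs, 6 had residual correlations over 0.1 and 7 under −0.1. The largest were between RI and SI, at 0.62 for replicate 1 and 0.44 for replicate 2, against 0.08 for replicate 3. The most negative was −0.35, between the RT-labelled and ST-labelled replicates 3. Some RI and SI arrays may thus not be independent. Correlations between arrays of different numbers were not computed, and the split of the internode arrays crossed the numbers. Whether the dependence follows the replicate number was not tested. With the replicate block, 0 members were called between the labelled tips (Os.52694.1.S1_at, adjusted p 0.071) and 10 between tips and internodes (Os.26380.1.S1_at added). The shares of all tested and bright probe sets called with the block were not computed. The cause of these shifts was not tested. With 3 arrays per tissue, and YL signals under the cutoff, differences smaller than the spread between arrays may have gone undetected. In the simulated data the fit recovered 23.9% of 2-fold and 80.6% of 4-fold differences between tips and internodes. Calls need an estimate over 2-fold, so a true 2-fold difference can be missed through that limit as well as through the spread. A missing call therefore does not show equal levels.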
